A study of Homo sapiens with 6 samples.

Results

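The genes described here are 10 genes of the unfolded protein response, the program that cells start when unfolded proteins build up in the endoplasmic reticulum (ER). They are ERN1, EIF2AK3, ATF6, XBP1, DNAJB9, HSPA5, HSP90B1, HERPUD1, SEL1L and EDEM1, out of 22412 genes tested. Their transcripts were measured in SW480 cells, a human line from a Dukes B colon adenocarcinoma, on 6 Affymetrix arrays. Of these, 3 arrays carry the label KHSRP siRNA and 3 the label scramble siRNA, and each group of 3 is described there as biological replicates. All cells received a lipid reagent (2 µl) with 30 pmol of siRNA, either against KHSRP or a non-targeting scramble, and were kept for 48 h. KHSRP encodes an RNA-binding protein that speeds the breakdown of mRNAs that carry AU-rich elements. Rows of the deposited log2 intensity table were taken by annotated gene symbol, with the brightest row where a gene had several. This gave 9 of the 10 genes a row of their own, and HSP90B1 a row that is also annotated with the microRNA gene MIR3652. The list was drawn up with the difference of ERN1 between the groups already known, so the values of ERN1 are given below as a description.

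The ER carries 3 stress sensors. IRE1, encoded by ERN1, is a kinase and endoribonuclease that cuts XBP1 mRNA so that the active XBP1 transcription factor can be made, and that can also cut other ER-bound RNAs. PERK, encoded by EIF2AK3, phosphorylates the initiation factor eIF2 alpha and lowers translation, and ATF6 is moved to the Golgi and cleaved there into a transcription factor. The transcription factors raise ER chaperones, such as BiP (HSPA5) and GRP94 (HSP90B1), and components of ER-associated degradation (ERAD), which returns misfolded proteins to the cytosol for the proteasome.

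The arrays did not check their own labels. The KHSRP row, which is also annotated with the microRNA gene MIR3940, had 5.62, 5.60 and 5.56 log2 units in arrays labelled KHSRP siRNA, against 5.75, 5.59 and 5.64 in arrays labelled scramble siRNA. It averaged 5.59 ± 0.03 in arrays labelled KHSRP siRNA and 5.66 ± 0.08 in arrays labelled scramble siRNA (SD, n = 3 each). The groups overlapped, and the log2 difference was -0.07 (SE 0.08), or 95.3% of the scramble level (95% confidence interval 83.6% to 108.6%). On this row the siRNA target was thus not called lower (limma adjusted p = 0.804). The exact permutation test (two-sided) gave p = 0.3, and 3 arrays against 3 allow no p below 0.1. Groups are therefore named by their labels. Correlations over all rows ran from 0.987 to 0.991 within groups and from 0.984 to 0.988 between them. Of the colon epithelial markers, the adhesion protein gene EPCAM averaged 12.15 over the 6 arrays and the keratin genes KRT8 and KRT18 averaged 13.48 and 15.58. The intestinal transcription factor gene CDX2 averaged 5.25, and VIL1, the gene of the brush border protein villin, 4.74. KRT20, CDX1, LGALS4 and GPA33 averaged 3.51 to 4.19, which is below the level that 95% of olfactory receptor genes stay under (4.73, called the olfactory receptor level below). Summed over the 11 epithelial markers, log2 levels ran from 81.1 to 82.1 in arrays labelled KHSRP siRNA and from 78.9 to 79.6 in arrays labelled scramble siRNA. Of the 11, 10 were fitted above 0, where 55% of all tested genes were, and 0 were called. The largest log2 differences were those of the keratin genes KRT8 (0.58), KRT19 (0.55) and KRT18 (0.49). EPCAM was at 0.08, the cadherin gene CDH1 at 0.03 and CDX2 at -0.09. Over 16 measured markers of blood, stromal, endothelial, muscle and other cells the sums were 66.8 to 67.8 in arrays labelled KHSRP siRNA and 66.4 to 68.0 in arrays labelled scramble siRNA, and 3 of the 16 lay above the median gene level of 4.76. The part of the epithelial markers in the results below was not tested.

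ERN1 and EIF2AK3, the genes of the sensor kinases IRE1 and PERK, had the largest differences of the 10, and both were lower in the arrays labelled KHSRP siRNA. ERN1 had log2 intensities of 5.32, 5.52 and 5.05 in those arrays, against 6.26, 6.29 and 6.47 in the arrays labelled scramble siRNA. The groups were 0.74 log2 units apart at their nearest arrays. The range was 0.47 within the KHSRP siRNA group and 0.21 within the scramble siRNA group. The means were 5.30 ± 0.23 for KHSRP siRNA and 6.34 ± 0.11 for scramble siRNA (SD, n = 3 each), a log2 difference of -1.04 (SE 0.13). The ERN1 values in arrays labelled KHSRP siRNA lay nearer to the olfactory receptor level (4.73) and the median gene level (4.76) than the scramble values did. The level of ERN1 was 48.6% of the scramble level (95% confidence interval 39.2% to 60.3%). Since ERN1 was chosen with this difference known, the size and interval are a description and do not allow for that choice.

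EIF2AK3 had 7.02, 7.39 and 7.16 in arrays labelled KHSRP siRNA, against 7.79, 7.81 and 7.79 in arrays labelled scramble siRNA. Its groups did not overlap either, with 0.39 log2 units between the nearest arrays, and its 3 scramble values lay within 0.02 of each other. The log2 difference was -0.60 (SE 0.11), or 65.8% of the scramble level (55.2% to 78.4%). Over all genes it missed the threshold of 0.05 narrowly, at a limma adjusted p of 0.0597. It passed in 3 of 16 alternatives and did not in the other 13. The 3 were limma fits to genes above the median level alone (adjusted p = 0.0400), to genes above the olfactory receptor level (0.0420) and with array weights (0.0276). Those 3 fits also called more genes in all, 433, 412 and 704, against 170 as reported. Over all 16 alternatives the adjusted p of EIF2AK3 ran from 0.0276 to 0.216.

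ATF6, the third sensor, was fitted above 0 and did not pass. It had 7.61, 8.20 and 8.01 in arrays labelled KHSRP siRNA, against 7.60, 7.56 and 7.80 in arrays labelled scramble siRNA. The groups overlapped through replicate 1 of the KHSRP siRNA group, and the log2 difference was 0.29 (SE 0.16, 95% confidence interval -0.08 to 0.66, limma adjusted p = 0.488). It was 0.45 without that array and 0.15 without replicate 2. Whether the 3 sensors differ from each other in their response was not tested.

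**Figure D1:**
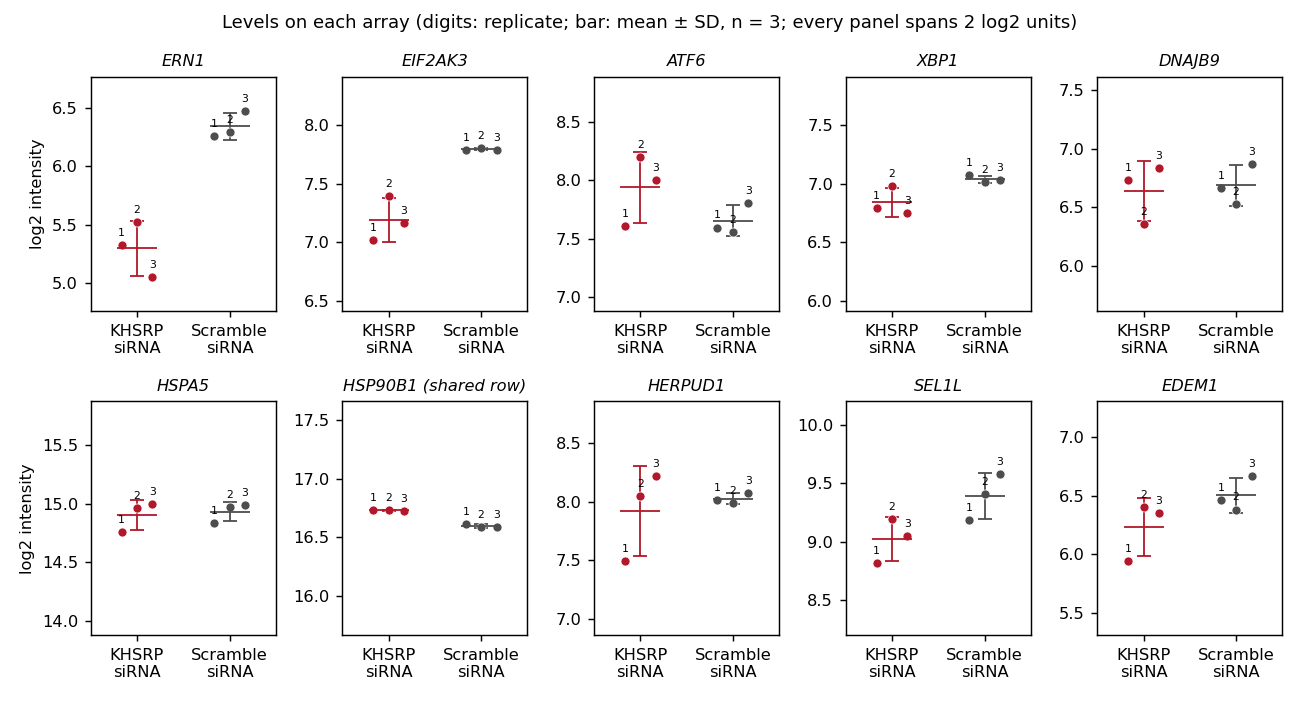
Log2 intensity (vertical axis) of the 10 genes on each array, with KHSRP siRNA on the left of each panel and scramble siRNA on the right, and bars for mean ± SD (n = 3). The groups are apart for ERN1, EIF2AK3, XBP1 and HSP90B1, by 0.74, 0.39, 0.03 and 0.11 log2 units between the nearest arrays, and they overlap for the other 6 genes.

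XBP1 is the substrate of the IRE1 nuclease and the transcription factor of that branch. XBP1 was fitted at 87.3% of its scramble level (95% confidence interval 75.5% to 100.9%). It had 6.79, 6.98 and 6.75 in arrays labelled KHSRP siRNA, against 7.07, 7.01 and 7.03 in arrays labelled scramble siRNA. The groups were separate by only 0.03, and the log2 difference of -0.20 (SE 0.09, 95% confidence interval -0.41 to 0.01) did not pass (limma adjusted p = 0.384). The row gives 1 value per array for the gene, so cut and uncut XBP1 mRNA were not told apart here. DNAJB9 encodes the ER co-chaperone ERdj4, is known as an XBP1 target, and is known to hold IRE1 inactive. It had 6.73, 6.35 and 6.83 in arrays labelled KHSRP siRNA, against 6.67, 6.53 and 6.87 in arrays labelled scramble siRNA. These groups overlapped, with a log2 difference of -0.05 (SE 0.15, 95% confidence interval -0.40 to 0.30). The sign turned to 0.09 without replicate 2 of the KHSRP siRNA group.

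The abundant ER chaperones were close between the groups. HSPA5, the gene of BiP and the usual readout of ER stress, had 14.75, 14.96 and 14.99 in arrays labelled KHSRP siRNA, against 14.84, 14.97 and 14.99 in arrays labelled scramble siRNA. Replicates 2 and 3 of both groups lay within 0.04 of each other and replicate 1 was lowest in both. The level was 98.0% of the scramble level (95% confidence interval 83.8% to 115%), with a log2 difference of -0.03 (SE 0.10, limma adjusted p = 0.950) that was 0.05 without replicate 1 of the KHSRP siRNA group. The row annotated HSP90B1 and MIR3652 had 16.74, 16.73 and 16.73 in arrays labelled KHSRP siRNA, against 16.61, 16.59 and 16.59 in arrays labelled scramble siRNA. All 3 arrays labelled KHSRP siRNA were above all 3 others, with SDs of 0.0053 for KHSRP siRNA and 0.014 for scramble siRNA. The difference itself was small, 0.13 (SE 0.07, limma adjusted p = 0.454 when rows of several symbols were included), or 109.7% of the scramble level.

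The 3 ERAD genes were all fitted below 0, and none passed. SEL1L, the scaffold of the ubiquitin ligase SYVN1 (HRD1), had 8.82, 9.19 and 9.05 in arrays labelled KHSRP siRNA, against 9.18, 9.40 and 9.58 in arrays labelled scramble siRNA. The groups met at 1 array each. The log2 difference was -0.37 (SE 0.14, 95% confidence interval -0.69 to -0.05), or 77.4% of the scramble level, at a limma adjusted p of 0.276. EDEM1, a lectin-like protein that passes misfolded glycoproteins to ERAD, had 5.94, 6.40 and 6.35 in arrays labelled KHSRP siRNA, against 6.46, 6.38 and 6.67 in arrays labelled scramble siRNA. The groups overlapped, with a log2 difference of -0.27 (SE 0.14, limma adjusted p = 0.465) that was -0.13 without replicate 1 of the KHSRP siRNA group. HERPUD1, an ER membrane protein of the same machinery that is known as strongly induced by ER stress, had 7.49, 8.05 and 8.22 in arrays labelled KHSRP siRNA, against 8.02, 7.99 and 8.08 in arrays labelled scramble siRNA. Its 3 scramble arrays lay within 0.09 of each other, while replicate 1 of the KHSRP siRNA group was below them all and replicate 3 above them all. The log2 difference of -0.11 (SE 0.18, limma adjusted p = 0.882) became 0.11 without replicate 1 of the KHSRP siRNA group.

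Replicate 1 was the lowest array of the KHSRP siRNA group for 6 of the 10 genes, namely EIF2AK3, ATF6, HSPA5, HERPUD1, SEL1L and EDEM1. For ERN1, XBP1 and the HSP90B1 row the lowest array was replicate 3, and for DNAJB9 it was replicate 2. The median array value over all rows was 4.37 on replicate 1 and 4.30 and 4.38 on replicates 2 and 3 of that group, against 4.37, 4.31 and 4.30 on the scramble arrays.

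As a set, 8 of the 10 genes were fitted below 0 (7 of 9 without ERN1), where 45% of all tested genes were. The groups did not overlap for 3 genes in the lower direction (ERN1, EIF2AK3 and XBP1), where this was so for 7.82% of all tested genes, and for 1 in the higher direction (the HSP90B1 row), against 11.6%. Without ERN1 the lower count was 2 of 9. Since the list was drawn up with this contrast known, nothing is read from these counts. At a limma adjusted p under 0.05 the contrast called 0.759% of all genes, 0.509% higher and 0.25% lower. Of the 10, ERN1 alone was among them, at an adjusted p of 0.0438, and it was chosen from this contrast. The other 9 had adjusted p from 0.0597 to 0.950. The median log2 difference was -0.20 over the 9 genes with a row of their own, -0.15 without ERN1 and 0.02 over all tested genes.

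**Figure D2:**
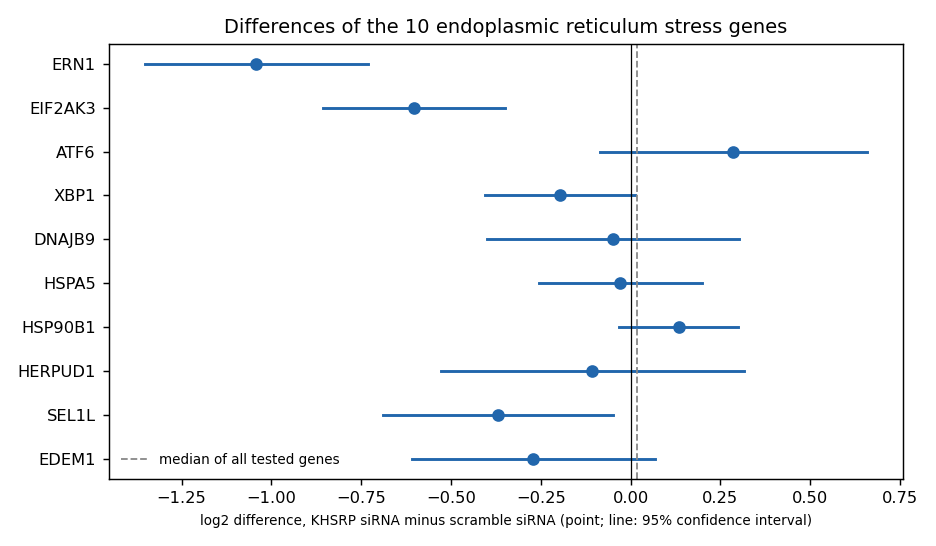
Log2 difference of each gene, KHSRP siRNA minus scramble siRNA (horizontal axis), with its 95% confidence interval from limma (lines). ERN1 at -1.04 and EIF2AK3 at -0.60 lie farthest from 0, HSPA5 at -0.03 and DNAJB9 at -0.05 nearest, and the dashed line marks the median of all tested genes at 0.02.

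The promoters of the 10 genes were searched for the DNA elements through which ATF6 and XBP1 are known to act, a feature that does not come from the arrays. Windows from 250 bases before to 50 after the annotated start were taken from RefSeq (GRCh38.p14), and all 10 genes had at least 1. The ER stress response element, ERSE, was searched as CCAAT and CCACG with 9 bases of any kind between them, ERSE-II as ATTGG and CCACG with 1 base between them, and the unfolded protein response element, UPRE, as TGACGTGG, each on both strands. ERSE was present in 3 of the genes (HSPA5, HSP90B1 and XBP1) and ERSE-II in HERPUD1. These letters were not in the windows of the other 6, and no window of the 10 genes held the UPRE. XBP1 also had a window at another annotated start, in which none of these elements was found. Of all 35116 windows, 0.0769% held ERSE, 0.0541% ERSE-II and 0.729% UPRE. The matched stretches are shown 5′ to 3′ in the direction of the gene, with the element in capitals, for the 4 genes in which an element was found.
HSPA5: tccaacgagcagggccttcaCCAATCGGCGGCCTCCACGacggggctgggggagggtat
XBP1: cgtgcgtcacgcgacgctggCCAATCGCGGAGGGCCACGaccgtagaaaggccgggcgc
HERPUD1: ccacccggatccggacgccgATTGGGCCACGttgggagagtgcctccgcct
HSP90B1: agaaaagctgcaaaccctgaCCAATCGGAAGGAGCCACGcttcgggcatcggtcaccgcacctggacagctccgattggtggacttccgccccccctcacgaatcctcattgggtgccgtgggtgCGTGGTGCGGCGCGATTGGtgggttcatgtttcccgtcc

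These stretches lie at chr9:125241371-125241429 (minus strand) for HSPA5, chr22:28800583-28800641 (minus strand) for XBP1, chr16:56932005-56932055 (plus strand) for HERPUD1 and chr12:103930196-103930359 (plus strand) for HSP90B1. The element begins 66 bases before the annotated start in HSPA5, 52 in XBP1 and 117 in HERPUD1. HSP90B1 has 2 matches, beginning 194 and 89 bases before the start, and the nearer one reads on the opposite strand. The log2 differences of these genes were -0.03 for HSPA5, -0.20 for XBP1, -0.11 for HERPUD1 and 0.13 for the HSP90B1 row.

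Over all 19 measured genes with an ERSE match, none was called and 0 had an unadjusted limma p under 0.05, against 14.4% of all tested genes. Their median log2 difference was -0.07 and the range ran from -0.41 for the zinc finger gene ZNF17 to 0.24 for CALR, the gene of the lectin chaperone calreticulin. The ER chaperone gene CANX (calnexin) was at -0.03 (SE 0.10) and the thiol oxidoreductase gene PDIA6 at -0.09 (SE 0.07). Of the 17 measured genes with an ERSE-II match 0 were called, and the median of the 17 was 0.04. An unadjusted limma p under 0.05 was found for 4 of the 17 (23.5%, against 14.4% of all tested genes). ZNF143, a zinc finger transcription factor gene, was at -1.19 (SE 0.26, limma adjusted p = 0.0918) and the chaperone gene HYOU1 at 0.06 (SE 0.22). The antisense gene of ZNF143, ZNF143-AS1, listed with the same element, was at 0.76 (SE 0.26), in the opposite direction to ZNF143. Both ZNF143 and ZNF143-AS1 are among the 4 genes at an unadjusted limma p under 0.05. Of 163 measured genes with UPRE, VCP was called lower and TIMP1 higher, or 1.23% against 0.759% of all tested genes. An unadjusted limma p under 0.05 was found for 27 of the 163 (16.6%, near the 14.4% of all tested genes), and their median was 0.01. Over genes with any of the 3 elements the median was 0.0036.

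Other genes of the pathway were taken from 9 lists, written with earlier results of these data known, that hold 200 different genes, 7 of them in more than 1 list. Of these, 180 had a row of their own and 5 passed the threshold, 2 higher and 3 lower, where 0.759% of all tested genes passed (0.509% higher and 0.25% lower). No gene at all, these 5 included, was called by limma after centring on array medians, or without replicate 2 or 3 of either group (0 calls in each, with 3111 genes at an unadjusted p under 0.05 after centring and 2372 to 3081 with 1 of these arrays left out). Genes named were the called members of each list, or those with the strongest limma statistic among brighter genes where fewer than 2 were called. A few central genes are named for their role.

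**Figure D3:**
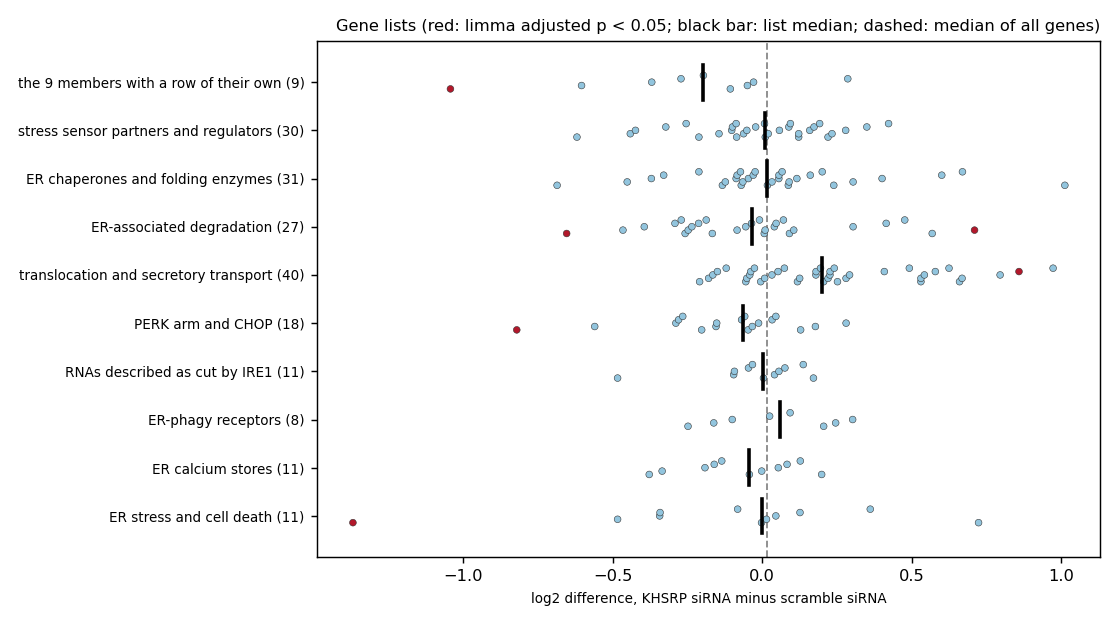
Log2 differences, KHSRP siRNA minus scramble siRNA (horizontal axis), of the 9 genes with a row of their own and of the 9 pathway lists, with the number of measured genes in brackets. Red points passed limma's adjusted threshold. List medians (black bars) run from -0.20 for the 9 genes and -0.06 for the PERK list to 0.20 for translocation and secretory transport, where 29 of 40 genes lie above 0.

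Among partners and regulators of the sensors, 0 of 30 measured genes were called, 16 were fitted above 0, and the median was 0.01. TMBIM6, the gene of the ER membrane protein BAX inhibitor 1 that is known to restrain IRE1, had 14.84, 15.04 and 14.94 in arrays labelled KHSRP siRNA, against 14.62, 14.45 and 14.49 in arrays labelled scramble siRNA (log2 difference 0.42, SE 0.09, limma adjusted p = 0.0890). DDRGK1, an ER anchor of the UFM1 modification system that is known to stabilise IRE1, had 9.01, 9.05 and 8.77 in arrays labelled KHSRP siRNA, against 9.24, 9.54 and 9.31 in arrays labelled scramble siRNA (-0.42, SE 0.12, adjusted p = 0.160). CDK5RAP3, a partner of DDRGK1 in that system, was also lower on every array labelled KHSRP siRNA than on every scramble array (-0.62, SE 0.17, adjusted p = 0.162). None of these 3 passed. For all 3 the groups did not overlap, where this was so for 7.82% of all tested genes lower and 11.6% higher. These 3 were picked by the limma statistic, so nothing is read from that. ERN2, the IRE1 paralog of mucosal epithelia, averaged 4.40 ± 0.10 in arrays labelled KHSRP siRNA and 4.31 ± 0.03 in arrays labelled scramble siRNA, both under the olfactory receptor level of 4.73. ATF6B, the ATF6 paralog, was at 0.16 (SE 0.09), and the site-2 protease gene MBTPS2, whose product cleaves ATF6, at 0.02 (SE 0.18).

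The list of the PERK branch, which also holds genes of other eIF2 alpha kinases, had 13 of 18 measured genes fitted below 0. Of all tested genes, 45% were fitted below 0. Of the 18, 1 was called, lower (5.56%, against 0.25% of all tested genes called lower). The called gene was VLDLR, a lipoprotein receptor known in mouse liver as induced through PERK and ATF4, which had 8.27, 8.15 and 7.85 in arrays labelled KHSRP siRNA, against 8.93, 8.92 and 8.89 in arrays labelled scramble siRNA (log2 difference -0.82, SE 0.12, limma adjusted p = 0.0473). All 3 arrays labelled KHSRP siRNA lay below all 3 scramble arrays. The other eIF2 alpha kinase genes EIF2AK4 (GCN2, sensing amino acid lack) and EIF2AK2 (PKR, sensing double-stranded RNA) were at -0.56 (SE 0.13, adjusted p = 0.103) and -0.28 (SE 0.09, adjusted p = 0.213). The effector ATF4, a transcription factor, was at 0.28 (SE 0.16), DDIT3, the gene of the death-promoting factor CHOP, at 0.05 (SE 0.14), and PPP1R15A, whose product GADD34 restores translation, at 0.13 (SE 0.19), none of them called. Of the 18 genes, 5 had an unadjusted limma p under 0.05, all lower, against 5.89% of all tested genes in that direction. On this list 15 genes lay above the median gene level, where 2501 of 11206 genes had such a p in either direction. The list median was -0.06. The median was -0.10 without KHSRP siRNA replicate 2, scramble siRNA replicate 1 or scramble siRNA replicate 3, -0.04 without scramble siRNA replicate 2 and -0.15 among genes above the median level.

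Of 31 measured ER chaperones and folding enzymes, 0 were called, 16 were fitted above 0, and 5 had an unadjusted limma p under 0.05, 3 higher and 2 lower. That is 16.1%, against 14.4% of all tested genes. Of the 31, 30 lay above the median gene level, where 2501 of 11206 genes had such a p. The list median was 0.02, the same as that of all genes. ERP44, which retains ER oxidases, had 10.80, 10.78 and 10.73 in arrays labelled KHSRP siRNA, against 10.28, 10.25 and 9.99 in arrays labelled scramble siRNA (log2 difference 0.60, SE 0.10, limma adjusted p = 0.0530). DNAJC1, an ER J-domain co-chaperone, was at 0.67 (SE 0.13, adjusted p = 0.0679), and SELENOF, a selenoprotein that binds the glycoprotein-folding sensor UGGT1, at 1.01 (SE 0.20, adjusted p = 0.0710). The lowest value of the list was that of UGGT1, which recognises incompletely folded glycoproteins, at -0.69 (SE 0.14, adjusted p = 0.0772). None of these 4 passed. CALR was at 0.24 (SE 0.14) and PDIA4, another disulfide isomerase gene, at -0.06 (SE 0.12).

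Of 27 measured ERAD genes 2 were called, 1 in each direction, or 7.41% against 0.759% of all tested genes. An unadjusted limma p under 0.05 was found for 9 of the 27 (33.3%, against 14.4% of all tested genes), 4 higher and 5 lower. Of the 27, 26 lay above the median gene level. A limma fit to the 11206 genes above that level called 433, and 2501 had an unadjusted p under 0.05. Both are larger shares than those of all tested genes. VCP, the ATPase that pulls substrates out of the ER membrane, had 10.66, 10.88 and 10.87 in arrays labelled KHSRP siRNA, against 11.32, 11.56 and 11.49 in arrays labelled scramble siRNA, and fell by 0.65 on the log2 scale (SE 0.10, limma adjusted p = 0.0473). SELENOK, an ER membrane selenoprotein known to bind VCP, had 8.00, 8.01 and 8.23 in arrays labelled KHSRP siRNA, against 7.53, 7.32 and 7.26 in arrays labelled scramble siRNA, and rose by 0.71 (SE 0.11, adjusted p = 0.0473). SYVN1, the ubiquitin ligase that SEL1L holds, was at 0.48 (SE 0.20, adjusted p = 0.338), and OS9, a lectin of the same complex, at -0.08 (SE 0.10). The list median was -0.04, and it ran from -0.08 to -0.01 over 16 alternatives, with -0.08 without KHSRP siRNA replicate 2 or scramble siRNA replicate 1 and -0.01 without scramble siRNA replicate 2.

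Translocation and secretory transport genes, many of them known as XBP1 targets, had the highest median of the 9 lists, 0.20, with 29 of 40 measured genes above 0, where 55% of all tested genes were. An unadjusted limma p under 0.05 was found for 17 of the 40, all higher, against 8.51% of all tested genes in that direction. All 40 lay above the median gene level, where 2501 of 11206 genes had such a p in either direction. Of the 40, 1 was called, higher (2.5%, against 0.509% of all tested genes called higher). SAR1B, the GTPase that starts COPII vesicle coats, had 9.68, 9.56 and 9.59 in arrays labelled KHSRP siRNA, against 8.94, 8.75 and 8.56 in arrays labelled scramble siRNA, and rose by 0.86 (SE 0.11, limma adjusted p = 0.0438). TRAM1, a membrane protein at the translocation channel, was at 0.66 (SE 0.11, adjusted p = 0.0531) and SEC24B, a cargo adaptor of COPII coats, at 0.67 (SE 0.11, adjusted p = 0.0531). Summed log2 levels of the 40 genes ran from 369.5 to 372.2 in arrays labelled KHSRP siRNA and from 359.7 to 362.3 in arrays labelled scramble siRNA.

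RNAs described as cut by IRE1 itself had a median of 0.0045 over 11 measured genes, 0 of them called. Only 5 of the 11 lay above the median gene level, so this median rests largely on dim genes. BLOC1S1, a lysosome-positioning factor and the substrate most often used as a readout, was at -0.03 (SE 0.10). The death receptor gene TNFRSF10B had 5.62, 5.75 and 5.52 in arrays labelled KHSRP siRNA, against 6.05, 6.23 and 6.05 in arrays labelled scramble siRNA (log2 difference -0.48, SE 0.10, limma adjusted p = 0.0759). HGSNAT, a lysosomal acetyltransferase gene, and GALNT2, a Golgi glycosyltransferase gene, were at 0.08 and 0.06 (SE 0.09 each).

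Of 11 measured genes that link ER stress to cell death, 1 was called, lower (9.09%, against 0.25% of all tested genes called lower). An unadjusted limma p under 0.05 was found for 5 of the 11 (45.5%, against 14.4% of all tested genes), 2 higher and 3 lower. The called gene was TXNIP, a thioredoxin-binding protein, with the largest difference of any gene on the 9 lists. TXNIP had 7.42, 7.19 and 7.11 in arrays labelled KHSRP siRNA, against 8.46, 8.59 and 8.77 in arrays labelled scramble siRNA (-1.37, SE 0.12, limma adjusted p = 0.0438). TXNIP is known as a transcript that IRE1 stabilises by degrading a microRNA, and it stood among the largest falls already known when the lists were written. PMAIP1, the gene of the BH3 protein NOXA, was at 0.72 (SE 0.15, adjusted p = 0.0774). Among 8 ER-phagy receptors and 11 genes of ER calcium stores none was called, with medians of 0.06 and -0.04. The ER-shaping receptor RTN3 was at 0.30 (SE 0.11), RETREG1 at 0.25 (SE 0.11) and SEC62 at 0.21 (SE 0.11), and the calcium leak channel gene TMCO1 was at 0.20 (SE 0.08), the calcium-binding protein gene RCN2 at -0.38 (SE 0.15) and the inositol trisphosphate receptor gene ITPR2 at -0.33 (SE 0.16).

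The genes with the profile most like that of ERN1 over the 6 arrays were AFG2A, an ATPase of ribosome maturation (Pearson r = 0.998), the ubiquitin ligase gene UBE4B (0.996), PSAT1 of serine synthesis (0.994), the histone acetyltransferase gene KAT7 (0.992) and the deubiquitinase gene USP25 (0.992). Their log2 differences were -0.60, -0.51, -1.08, -0.41 and -0.44. These were taken from 11205 genes above the median level, of which 454 had r above 0.9, and the 6 points fall into the same groups for every gene.

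The differences of the 10 genes held their sign to different degrees when the processing was varied. ERN1 ran from -1.15 to -0.92, EIF2AK3 from -0.70 to -0.52, SEL1L from -0.47 to -0.27, EDEM1 from -0.36 to -0.13, XBP1 from -0.27 to -0.15 and ATF6 from 0.15 to 0.45 over 16 alternatives each, and the HSP90B1 row from 0.11 to 0.14 over 12. DNAJB9, HSPA5 and HERPUD1 were found on both sides of 0.

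**Figure D4:**
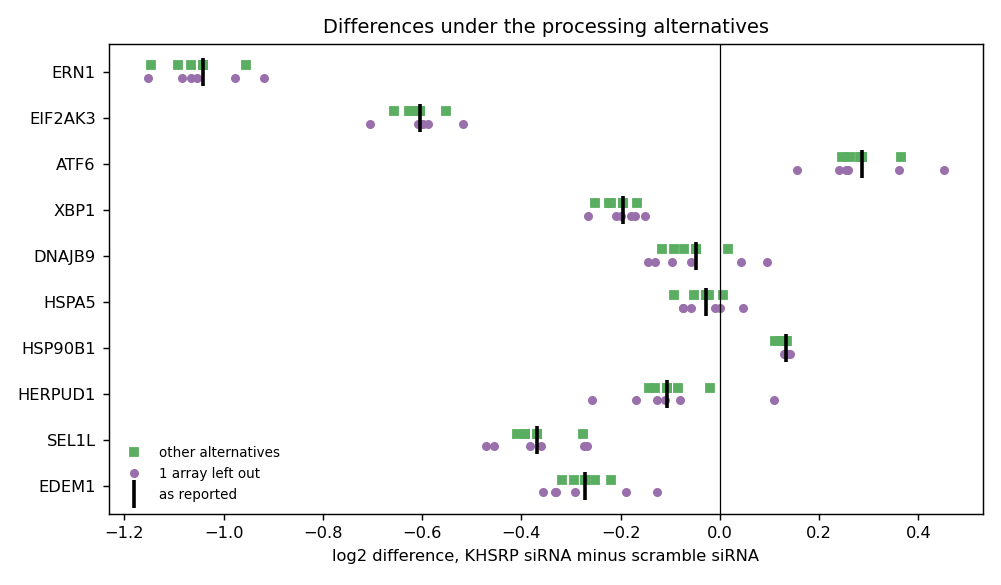
Log2 difference of each gene, KHSRP siRNA minus scramble siRNA (horizontal axis), as reported (black bar), with 1 array left out (circles) and under the other alternatives (squares). ERN1 stays between -1.15 and -0.92 and EIF2AK3 between -0.70 and -0.52, whereas HERPUD1 spans -0.26 to 0.11.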

How the data were processed

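Total RNA of SW480 cells was amplified, labelled with biotin and hybridised, per the labels' protocols. The authors deposited log2 intensities, for which the submitters' processing notes name Affymetrix Expression Console, RMA, Transcriptome Analysis Console and build hg19, with versions and parameters not given in the sources used here. Arrays carry no depth, and their number limits the precision. Whether the replicates came from separate cultures is not stated, so p-values measure the spread between these samples. Of 70523 rows, 23781 had 1 gene symbol and 1543 several; symbols were updated through RefSeq gene IDs. Rows with several symbols were left out except that of KHSRP, and HSP90B1 was fitted on the table that includes them. The difference (KHSRP siRNA minus scramble siRNA) was fitted by lmFit and eBayes of limma 3.58.1, under R 4.3.3, tested on simulated data, with Benjamini-Hochberg adjustment over all 22412 tested genes. All p-values are two-sided, and called means an adjusted p under 0.05. The 10 genes and all lists were chosen with earlier results of these data known. Named genes were the 10, KHSRP, up to 3 per list by call or limma statistic, the 5 most like ERN1, and others named for their role after values were seen. A planned list by the ER retention signal of the protein was not made, since no protein sequences were used here. Same-numbered arrays were checked for pairing. Their deviations from the group means correlated at 0.16, 0.06 and -0.08 over genes, so no block was used.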

Additional observations from a re-analysis of the deposited data

How the results depend on the processing

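The number of genes called depended on the processing far more than the values of the 10 genes did. Against 170 calls as reported, limma gave 1 with the replicate block, 32 after a second quantile normalization, 433 with genes under the median level left out, 412 among genes above the olfactory receptor level and 704 with array weights. It gave 0 after centring on array medians, with an intensity trend and robust prior, and with the array median as a covariate (3111, 3097 and 3412 genes at an unadjusted p under 0.05). With 1 array left out it gave 0 to 329 calls, with 0 without KHSRP siRNA replicate 2 or 3 or scramble siRNA replicate 2 or 3 (3081, 2372, 2531 and 2513 genes at an unadjusted p under 0.05), 1 without scramble siRNA replicate 1 and 329 without KHSRP siRNA replicate 1. The adjusted p of ERN1, given as a description, ran from 0.0231 to 0.156 and lay under 0.05 in 7 of 16 alternatives. It was 0.0900 with the replicate block, where EIF2AK3 was at 0.10. The median of the genes ran from -0.27 to -0.13. HSPA5 was at 0.0052 with the array median as a covariate and ran from -0.075 to 0.046 with 1 array left out, above 0 without KHSRP siRNA replicate 1. HERPUD1 ran from -0.26 to 0.11, above 0 without the same array. DNAJB9 was at 0.017 with array weights and ran from -0.15 to 0.094, above 0 without KHSRP siRNA replicate 2 or scramble siRNA replicate 3. Over 16 alternatives each, the medians of the 9 pathway lists moved within -0.16 to 0.20. That of translocation and secretory transport ran from 0.16 to 0.20, that of the PERK list from -0.15 to -0.04 and that of the cell death list from -0.16 to 0.02. The cause of these changes was not tested. KHSRP stayed between -0.12 and -0.02. The fits without 1 array assume that the remaining arrays vary alike. The alternative definition of the retention signal list was not run.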
